A study of Mus musculus with 20 samples.

Results

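The 10 genes described here encode proteins that carry fatty acids into muscle fibres and burn them: Cd36, Lpl, Fabp3, Cpt1b, Acadm, Acadl, Hadha, Hadhb, Ucp3 and Pdk4. They were chosen by name, as known targets of the PPAR receptors, and each symbol matched 1 Ensembl identifier among the 55401 genes of the count matrix. All 10 passed the filter on low counts that kept 13626 genes for testing. Bulk RNA sequencing was done on the gastrocnemius, a mixed and mainly fast-fibred calf muscle, of 20 C57BL/6 mice aged 24 months. HK (Haenkenium, a standardized Salvia haenkei extract) was given to 10 of them through the drinking water, at 0.5 mg/kg per day over 4 months from the age of 20 months. The other 10 mice were untreated. The sexes were balanced at 5 and 5 in both groups, and the labels put 4 mice of each group in batch 1 and 6 in batch 2. No genetic alteration is named in the labels, and both groups were old.

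Fatty acids reach a muscle fibre when lipoprotein lipase frees them from circulating triglyceride and CD36 takes them across the membrane. Carnitine palmitoyltransferases pass them into mitochondria, where acyl-CoA dehydrogenases and the trifunctional protein shorten them step by step. The PPAR receptors switch on many of these genes when fatty acids are plentiful, as in fasting, and PDK4 then holds back glucose oxidation by phosphorylating pyruvate dehydrogenase.

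Total counts ran from 13900180 to 30469644 per mouse. The muscle label held: the 7 skeletal muscle markers, among them the actin gene Acta1, summed to between 126089 and 171935 CPM (counts for each 1000000 of the scaled library) in the 20 mice. In whole muscle, fewer cells of a type and less RNA per cell cannot be told apart. Per kilobase of exon, Pdk4 stood highest at 203 ± 185 CPM/kb (SD, n = 20), followed by Fabp3 at 143 ± 36.4 and Acadl at 128 ± 19.4. Acadm (85.1 ± 9.78), Cd36 (71.8 ± 14.2), Lpl (71.4 ± 10.8), Ucp3 (54.2 ± 39.1), Hadha (48.0 ± 5.04) and Hadhb (25.2 ± 3.12) came next, on the same scale. Several neighbours in this order were not separated: Pdk4 exceeded Fabp3 in 12 of 20 mice, Cd36 exceeded Lpl in 13, and Ucp3 exceeded Hadha in 9. Acadl exceeded Acadm, and Hadha exceeded Hadhb, in 20 of 20 mice. The order of the first pair rests on the exon lengths of 2005 and 3913 bases: in CPM, not divided by length, Acadm was 1.04 to 1.54 times Acadl. Other places depend on length too, taken over all annotated exons of a gene. Mean CPM was 748 for Lpl, 713 for Pdk4, 419 for Hadha and 118 for Fabp3.

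Cpt1b, the muscle form of the enzyme that starts fatty acid import into mitochondria, was listed at only 1.65 ± 0.341 CPM/kb. Its 68 to 187 reads per mouse carry a counting error of 12.1% to 7.31%. In the GENCODE M21 annotation, 81.4% of its exon bases (chr15:89416405-89425863, minus strand) are shared on the same strand with Gm44502, a gene listed at 0 in all 20 mice. The sources used here do not say how reads that match both genes were counted, and the Cpt1b level is therefore uncertain. Fabp3 has 19.6% of its exon bases on the strand opposite Gm10570 and Zcchc17, and the use of strand in counting is likewise not given.

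The first comparison asked whether HK changed these genes in old muscle. None of the 10 passed adjusted p 0.05 in edgeR's quasi-likelihood test, p being adjusted by Benjamini-Hochberg over all genes, where 0% of all 13626 genes did, the lowest adjusted p among all genes being 0.356. At an unadjusted p under 0.05 the count was again 0 of 10, against 6.13% of all genes tested (379 higher and 456 lower with HK). By other tools, limma voom called 0 genes in all, and the Wald test of DESeq2 7 genes, none of them among the 10. The fitted values of 7 of the 10 genes lay below 0, where 51.0% of all genes tested lay above 0. The median of all 10 was -0.05 on the log2 scale, and that of all genes tested was 0.002. The plot of CPM by mouse shows the 2 groups overlapping for every one of the 10 genes.

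**Figure D1:**
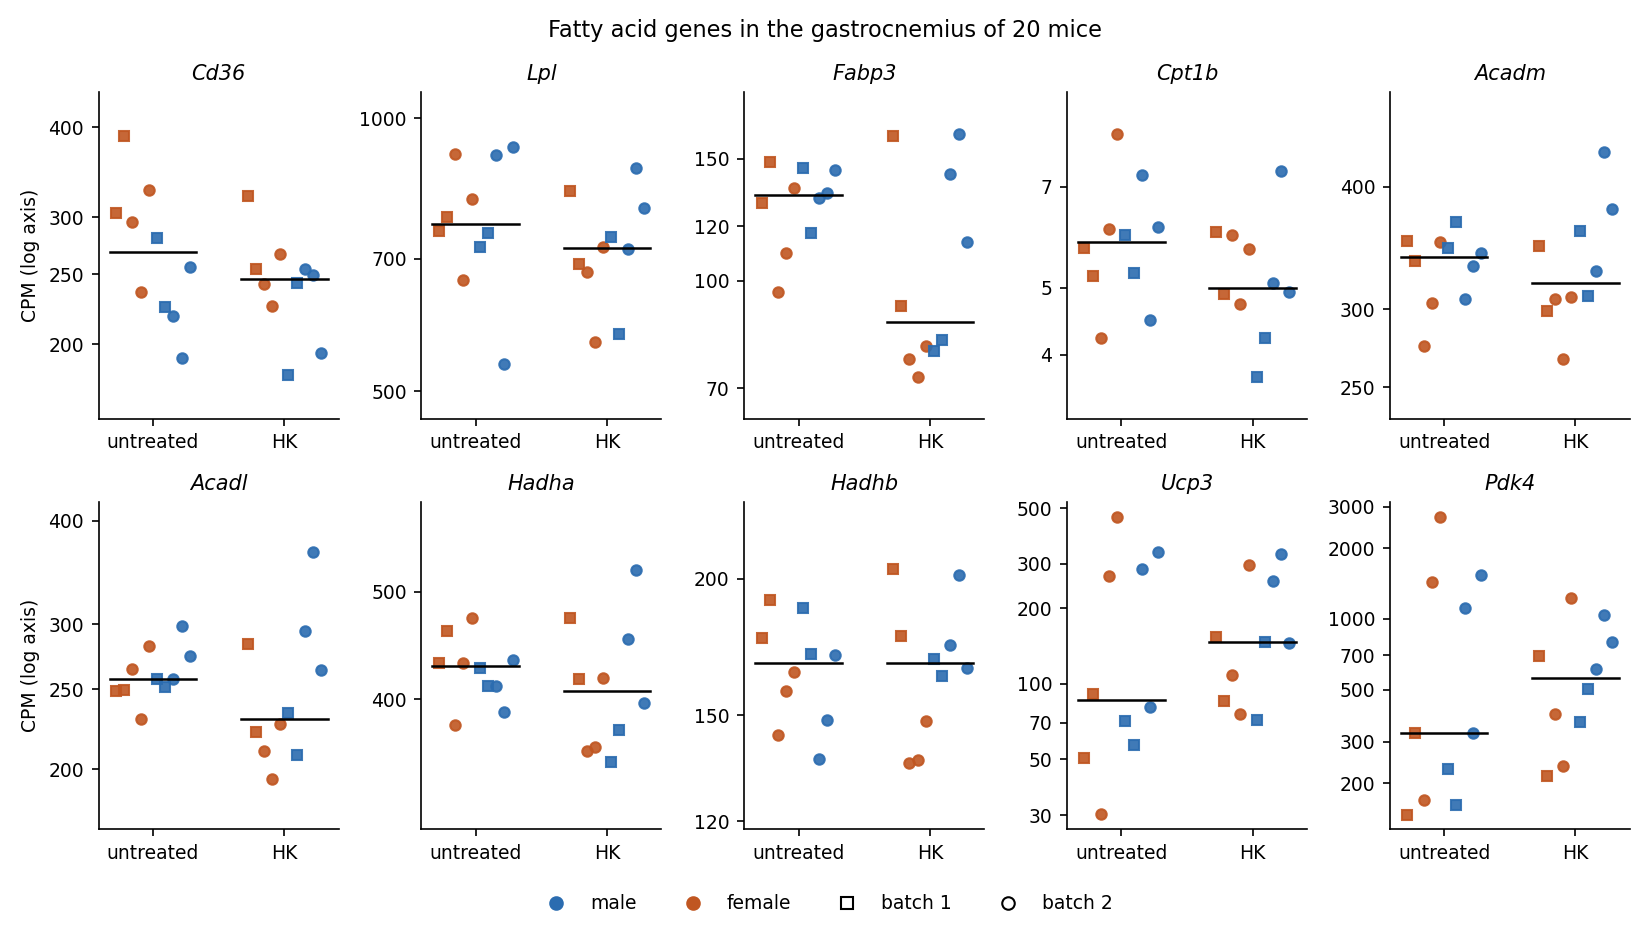
CPM of each of the 10 genes (log axis, each panel with its own range) in untreated and HK-treated mice; points are single mice, coloured by sex, squares for batch 1 and circles for batch 2, and bars are group medians. The groups overlap in every panel, and Ucp3 and Pdk4 spread over a far wider range (15.2-fold and 18.5-fold) than the other 8 genes.

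Among the uptake genes, Fabp3 had the lowest p of the 10. Fabp3 (chr4:130308595-130315463, plus strand) encodes the fatty acid binding protein of heart and skeletal muscle. Untreated mice had 96.4 to 148 CPM with a median of 133, and HK-treated mice 72.7 to 163 with a median of 87.1. Treated mice lay on both sides of the untreated range, 6 under its lowest mouse and 2 over its highest. Taken over both sexes and batches, the treated group was therefore the more scattered. The log2 fold change was -0.28 with a standard error (SE) of 0.15 (edgeR, p = 0.0702, adjusted p = 0.795), so it did not pass. Within batch 1 it was -0.41, within batch 2 -0.26, in males -0.26 and in females -0.40, subsets that share mice. By sex and batch together, treated mice lay below untreated ones in batch 1 males (79.2 and 82.2 against 117 and 146 CPM). They did so too in batch 2 females (72.7 to 80.6 against 96.4 to 136). The groups overlapped in batch 2 males (114 to 163 against 132 to 144) and batch 1 females (92.0 and 162 against 130 and 148). This split was not tested. Without the filter on low counts the value was -0.27 with an edgeR adjusted p of 0.00556, the only one of the tools and settings tried that called it. That fit called 502 of 30096 genes, against 0 with the filter. It gave far smaller p-values at nearly unchanged fold changes: for Pdk4 between batches, adjusted p was 1.56e-94 at 1.53, against 0.0163 at 1.54 with the filter. Its call of Fabp3 is therefore weak evidence.

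Cd36 (chr5:17781690-17888801, minus strand), the fatty acid translocase, had 192 to 389 CPM (median 268) in untreated and 181 to 321 (median 246) in HK-treated mice. Its log2 fold change was -0.15 (95% interval -0.34 to 0.04, edgeR adjusted p = 0.816). Lpl (chr8:68880491-68907448, plus strand), the lipase that releases fatty acids at the capillary wall, ranged from 536 to 930 CPM (median 765) and from 566 to 882 (median 719), with a log2 fold change of -0.11 (-0.31 to 0.09). All 3 uptake genes therefore had fitted values below 0 without passing the test. Markers of slow fibres, endothelial cells and macrophages lay in the same direction, those of adipocytes did not, and 0 of all these passed adjusted p 0.05. Other lists lay mostly above 0, also without passing. Above 0 were 8 of 10 markers of fasting and glucocorticoid response (median log2 fold change 0.23), all 5 of erythrocytes (0.47) and 6 of 7 of fast glycolytic fibres (0.09). At an unadjusted p under 0.05 these had 2, 1 and 0 markers. Of 7 adipocyte markers 4 lay above 0 and 3 below (median log2 fold change 0.05). Their sums were 74.7 to 321 CPM in HK-treated and 94.5 to 288 CPM in untreated mice. Of 8 slow fibre markers 6 had an unadjusted p under 0.05, and all 8 lay below 0 (median log2 fold change -0.68). Their summed level was 838 to 3832 CPM (median 2182) in HK-treated and 895 to 6575 CPM (median 2995) in untreated mice. The 6575 CPM belonged to an untreated male of batch 2, above the highest female at 5029 CPM. All 7 endothelial markers lay below 0 (median -0.24, 1 at an unadjusted p under 0.05), with sums of 98.4 to 270.4 and 157 to 284 CPM. All 9 macrophage markers did so too (median -0.30, 0 at an unadjusted p under 0.05), with sums of 13.5 to 133 and 18.8 to 168 CPM. No marker was at 0 in all mice, and the part of these in the uptake values was not tested.

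Of the oxidation genes, Acadm, Hadha and Hadhb had narrow intervals and Cpt1b a wider one. Acadm (chr3:153922357-153944632, minus strand), the medium-chain acyl-CoA dehydrogenase, ranged from 275 to 368 CPM (median 339) in untreated and 267 to 435 (median 319) in HK-treated mice. Its log2 fold change was 0.01 (95% interval -0.13 to 0.15). Acadl (chr1:66830839-66863277, minus strand), the long-chain dehydrogenase, ranged from 231 to 298 CPM (median 257) and from 195 to 366 (median 231), with a log2 fold change of -0.07 (-0.25 to 0.11). Cpt1b ranged from 4.22 to 8.34 CPM (median 5.82) and 3.71 to 7.36 (median 5.00), with a log2 fold change of -0.16 (-0.42 to 0.10). None of these passed, and for Acadm a change of more than 0.15 log2 units in either direction lay outside the interval.

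Hadha and Hadhb encode the 2 subunits of the mitochondrial trifunctional protein, which carries out the last steps of each round for long chains. Hadha (chr5:30118304-30155162, minus strand) had 379 to 474 CPM (median 429) in untreated and 351 to 524 (median 407) in HK-treated mice, and a log2 fold change of -0.04 (95% interval -0.19 to 0.11). Hadhb (chr5:30155248-30184593, plus strand) had 137 to 191 CPM (median 167) and 136 to 204 (median 167), and a log2 fold change of 0.02 (-0.12 to 0.17). The pair is annotated on opposite strands, with RefSeq starts 273 bases apart. In GENCODE M21 a stretch of 85 bases lies between the 2 genes. That stretch is shown because the levels of the pair were correlated from mouse to mouse. It is written on the plus strand of GRCm38.p6 at chr5:30155163-30155247, from RefSeq, in lower case throughout because it does not hold AGGTCA, the half-site of PPAR and related receptors.
Hadha-Hadhb: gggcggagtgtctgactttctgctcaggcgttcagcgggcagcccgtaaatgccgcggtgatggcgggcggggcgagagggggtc

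Ucp3 and Pdk4 had higher medians in HK-treated mice, fitted changes near 0 and wide intervals. Ucp3 (chr7:100472990-100486432, plus strand), the muscle uncoupling protein of the inner mitochondrial membrane, ranged from 30.3 to 459 CPM (median 85.8) in untreated mice. In HK-treated mice it ranged from 71.8 to 328 CPM (median 146), and the log2 fold change was 0.13 (95% interval -0.66 to 0.93, edgeR adjusted p = 0.965). Pdk4 (chr6:5483351-5496309, minus strand) ranged from 147 to 2722 CPM (median 327) in untreated and from 214 to 1226 (median 559) in HK-treated mice, with a log2 fold change of -0.03 (-0.98 to 0.91, adjusted p = 0.994). The treated range lay inside the untreated range for both genes.

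**Figure D2:**
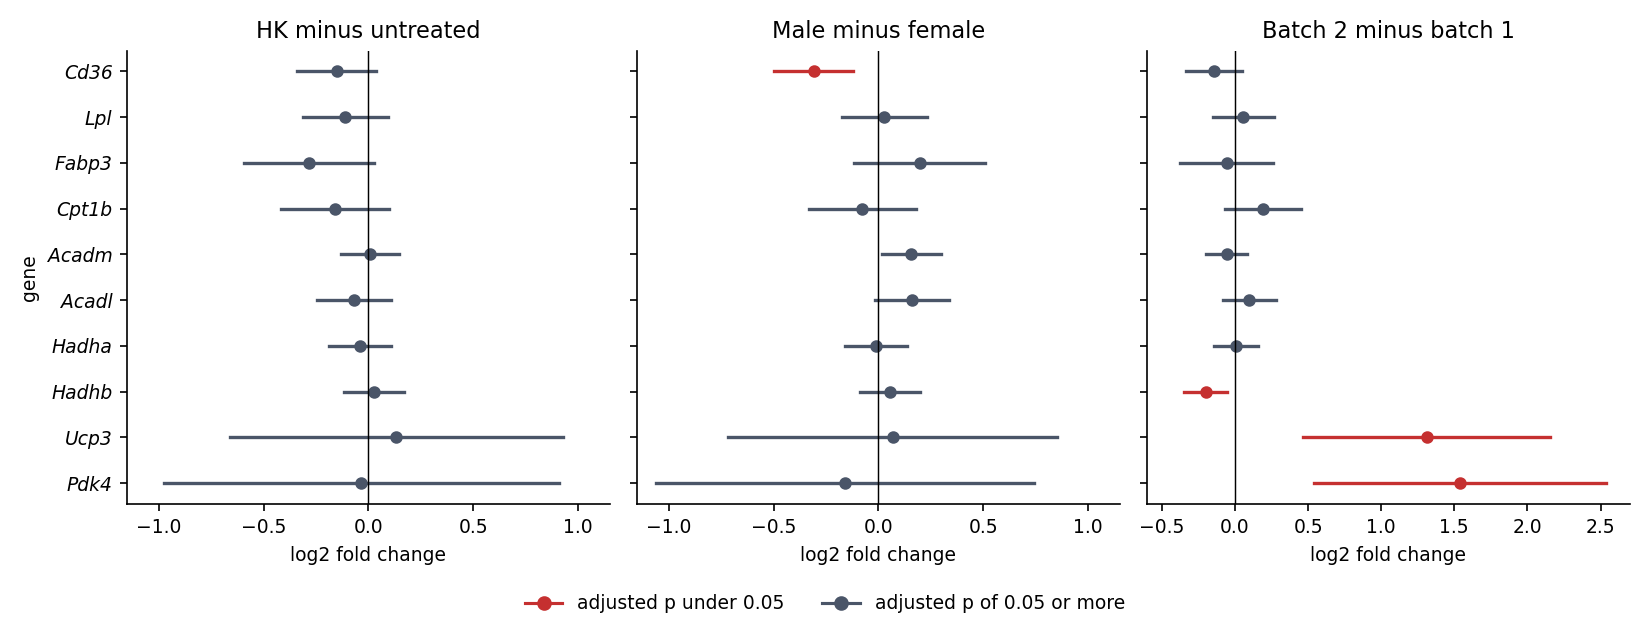
Log2 fold change (x axis) of each of the 10 genes (y axis) with its 95% interval in 3 comparisons from 1 edgeR fit; red marks adjusted p under 0.05. No gene is red for HK, Cd36 alone is red for sex at -0.31, and Hadhb, Ucp3 and Pdk4 are red for batch.

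The effect of HK was also compared between sexes and between batches by interaction terms. For sex, 0% of the 13800 genes tested passed adjusted p 0.05 and 3.5% had an unadjusted p under 0.05, and 0 of the 10 genes did so by either rule (lowest adjusted p over all genes 0.998). For batch, 0% of genes passed and 3.01% had an unadjusted p under 0.05, among them 1 of the 10 genes, Pdk4. Within batch 1 the fitted log2 change of Pdk4 with HK was 1.05, from 147 to 326 CPM in untreated to 214 to 694 CPM in HK-treated mice. Within batch 2 it was -0.74, from 170 to 2722 CPM to 236 to 1226 CPM. The difference between the batches was -1.79 (SE 0.81, unadjusted p = 0.0402, edgeR adjusted p = 0.9997), which did not pass. Ucp3 had 0.77 in batch 1 and -0.30 in batch 2, a difference of -1.05 (95% interval -2.62 to 0.52). DESeq2 and limma voom also called 0 genes for either interaction.

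The wider pathway was read from 8 lists with 63 other genes, of which 62 were tested. None passed adjusted p 0.05 for HK, and 1, the monoacylglycerol lipase gene Mgll, had an unadjusted p under 0.05 (log2 fold change -0.30, SE 0.11, adjusted p = 0.795). Fitted values were below 0 for 43 of the 62 genes, with a median of -0.04, where 51.0% of all genes tested lay above 0. Of the 11 other beta-oxidation enzymes, 10 had values below 0, between -0.17 and -0.02, and Decr1 had 0.03. The transcriptional regulators had values from -0.23 for the coactivator gene Ppargc1a to 0.18, with Ppara at 0.16, Ppard at 0.06 and Rxra at 0.12. Other named genes were Cpt1a (-0.18) and Cpt2 (-0.02) of the carnitine shuttle, Slc25a20 (-0.07), Acadvl (-0.08), Etfb (-0.11), the lipase inhibitor gene Angptl4 (-0.32), Fabp4 (-0.17), Plin5 (-0.23), Pdk2 (0.08), Ucp2 (-0.29) and Bdh1 (-0.30). None of these values passed the test.

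**Figure D3:**
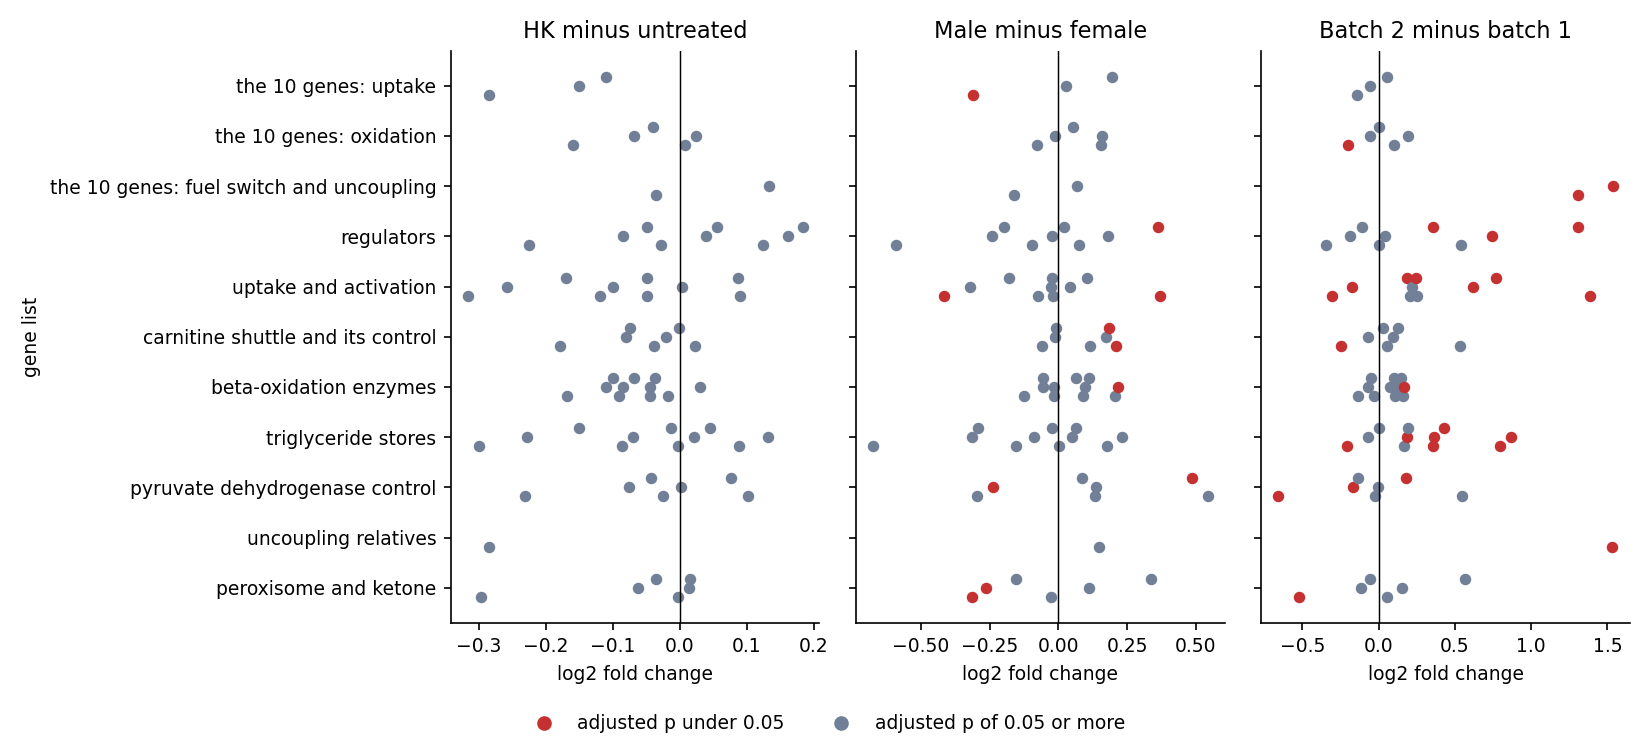
Log2 fold changes (x axis, a separate scale in each panel) of the 10 genes and the 62 other pathway genes by list (y axis), each point 1 gene; red marks adjusted p under 0.05. No point is red for HK, 11 are red for sex and 27 for batch.

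The second comparison was between males and females, over both treatments. Cd36 was lower in males, and it was the only one of the 10 to pass: 0 were higher, against 8.79% of all genes tested, and 1 was lower, against 7.33%. Males had 181 to 281 CPM of Cd36 (median 234) and females 226 to 389 (median 281). The sexes overlapped, with 5 females above the highest male and 5 males below the lowest female. The log2 fold change was -0.31 (SE 0.09, edgeR adjusted p = 0.0238), a male level 0.807 of the female level (95% interval 0.708 to 0.920). The value was -0.45 within batch 1, -0.22 within batch 2, -0.42 in untreated and -0.22 in HK-treated mice, and none of these 4 smaller fits passed (adjusted p 0.0527 to 0.362). Without untreated female replicate 2, the mouse with the highest Cd36, the log2 fold change was -0.26 (adjusted p = 0.0512).

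Slow fibre and adipocyte markers differed between the sexes in the same direction as Cd36, and most macrophage markers lay in the other direction. Of 8 slow fibre markers 7 were lower in males, among them the slow myosin gene Myh7 (-1.46), and their summed level was 838 to 6575 CPM in males and 2631 to 5029 CPM in females. Myh2, the myosin gene of fast oxidative IIA fibres, was also lower (-0.45). Of 7 adipocyte markers 6 were lower in males, among them Adipoq (-1.27) and Plin1 (-1.49), with sums of 74.7 to 193 and 98.5 to 321 CPM. All 7 endothelial markers lay below 0 but 0 passed, Pecam1 standing at -0.26, with sums of 98.4 to 281 and 156 to 284 CPM. Of 9 macrophage markers 8 lay above 0 (median log2 fold change 0.57) and 1 passed as higher in males, with sums of 13.5 to 168 and 20.7 to 99.2 CPM. No marker was at 0 in all mice, and the part of these cells and fibres in the Cd36 difference was not tested.

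The other 9 genes did not pass for sex. Acadm came nearest, at 308 to 435 CPM (median 345) in males and 267 to 352 (median 308) in females, a log2 fold change of 0.16 (SE 0.07, unadjusted p = 0.0293, edgeR adjusted p = 0.117). Acadl had 0.16 (adjusted p = 0.216). Fabp3 had 0.20 over all mice (adjusted p = 0.406), but -0.37 within batch 1 (adjusted p = 0.226) and 0.56 within batch 2 (adjusted p = 0.0234), and the difference between the batches was not tested. Lpl (0.03), Cpt1b (-0.08), Hadha (-0.01), Hadhb (0.05), Ucp3 (0.07) and Pdk4 (-0.16) had adjusted p from 0.645 to 0.938.

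In the wider pathway 6 of 62 genes were higher in males and 4 lower at adjusted p 0.05, shares close to the 8.79% and 7.33% of all genes tested. Higher were Esrra (0.36), which encodes a nuclear receptor of mitochondrial genes, the carnitine carrier Slc25a20 (0.21), the carnitine acetyltransferase Crat (0.18), the dehydrogenase Hadh (0.22), the acyl-CoA synthetase Acsl6 (0.37) and the pyruvate dehydrogenase phosphatase Pdp1 (0.49). Among the lower were Fabp4 (-0.42), which is also one of the adipocyte markers, Pdk1 (-0.24) and the peroxisomal enzyme Hsd17b4 (-0.31). Ppara (-0.24), Ppard (-0.20), Ppargc1a (0.18), Angptl4 (-0.32), Cpt1a (0.11), Cpt2 (-0.01), Acadvl (0.10), Plin5 (0.003), Pdk2 (0.13), Ucp2 (0.15) and Mgll (-0.29) did not pass.

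The batches differed in more of the 10 genes than treatment or sex did, as they did over all genes tested (5062, against 0 and 2197). The comparison is given because each group was split over both batches. At adjusted p 0.05, 2 of the 10 were higher in batch 2, against 18.2% of all genes tested, and 1 was lower, against 19%. The mice, their dissection and their sequencing cannot be told apart between batches. Pdk4 had 147 to 694 CPM (median 278) in the 8 mice of batch 1 and 170 to 2722 (median 920) in the 12 of batch 2. Its log2 fold change was 1.54 (SE 0.48, edgeR adjusted p = 0.0163). Ucp3 had 50.5 to 154 CPM (median 78.7) and 30.3 to 459 (median 263), a log2 fold change of 1.31 (SE 0.40, adjusted p = 0.0155). For both genes 7 of the 12 mice of batch 2 lay above every mouse of batch 1, and the others within or below its range.

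In untreated mice alone the batch difference of Pdk4 was 2.47 (adjusted p = 0.0292) and that of Ucp3 1.85 (adjusted p = 0.0581). In HK-treated mice alone they were 0.68 (adjusted p = 0.324) and 0.79 (adjusted p = 0.216). Hadhb was lower in batch 2, with 136 to 202 CPM (median 153) against 163 to 204 (median 177), a log2 fold change of -0.20 (SE 0.07, adjusted p = 0.0287). The Hadhb call was lost (adjusted p 0.0534 to 0.0798) without any 1 of 4 mice: HK female replicate 1, untreated female replicates 1 and 2, and untreated male replicate 1. Hadha did not share this difference (0.005, adjusted p = 0.967). The ratio of Hadha to Hadhb CPM was therefore 2.08 to 2.44 in batch 1 and 2.40 to 3.003 in batch 2, with 11 of the 12 mice of batch 2 above every mouse of batch 1.

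Other genes moved with the batch as well. Of the 62 pathway genes 17 were higher and 7 lower in batch 2, where 18.2% and 19% of all genes tested were, the higher ones including Ppargc1a (1.31), Ppara (0.75), Ppard (0.36), Angptl4 (1.39) and Ucp2 (1.53). Of 10 markers of fasting and glucocorticoid response 8 were higher, with sums of 1066 to 1310 CPM in batch 1 and 845 to 2159 CPM in batch 2. All 9 macrophage markers were higher, with sums of 13.5 to 43.8 and 38.5 to 168 CPM, and so were all 5 erythrocyte markers, with sums of 30.4 to 98.6 and 60.8 to 403 CPM. The part of these in the Pdk4 and Ucp3 values was not tested.

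From mouse to mouse within a treatment, sex and batch, Pdk4 and Ucp3 varied more than almost any other gene. Their SD of log2 CPM within these 8 strata was 1.195 and 1.127, at the 99.7th and 99.6th percentile of the 13626 genes tested, whose median was 0.215. Hadhb (0.117, 14.6th percentile), Hadha (0.130, 20.4th), Acadm (0.141, 25.4th) and Acadl (0.154, 30.9th) were among the steadier genes. The percentiles were not adjusted for expression level, and the mean log2 CPM of these genes ran from 7.37 (Hadhb) to 8.70 (Hadha). Cd36, Fabp3, Lpl and Cpt1b lay between, from 0.221 to 0.295. Pdk4 was above 1000 CPM in 6 mice, all of batch 2, of which 4 were untreated and 2 HK-treated. The highest was untreated female replicate 5, with 2722 CPM of Pdk4 and 459 CPM of Ucp3, and the lowest of the same sex, group and batch was untreated female replicate 3, with 170 and 30.3 CPM.

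The 10 genes were then compared in pairs across the 20 mice, on log2 CPM centred within the 8 strata, which removes treatment, sex and batch. All 45 pairs had a positive Pearson r, and 15 passed an exact permutation test within strata at adjusted p 0.05, adjusted over the 45 pairs, 12 by rank. Leaving out 1 mouse at a time gave 7 to 18 pairs, with 7 without untreated female replicate 5 and 8 without HK male replicate 4 or HK female replicate 1, 2 or 4. Values of 1 mouse share a library and its scaling, and the share of such pairs among all genes was not computed. Among the 13625 other genes tested, ordered by r, the closest of the other 9 stood 1627th for Lpl, 354th for Acadm and 118th for Cd36. It stood 29th for Acadl, 21st for Cpt1b, 17th for Hadha, 11th for Hadhb, 5th for Fabp3 and 1st for Ucp3 and Pdk4. Lpl, Acadm and Acadl had no pair that passed. Lpl had r of 0.21 to 0.39 against the other 9 genes over all mice, but within batch 1 it had 0.928 with Acadm and 0.860 with Acadl, against 0.197 and 0.155 within batch 2. Without the 2 mice farthest from the median these pairs had 0.626 and 0.692. Each stratum of batch 1 holds only 2 mice, whose centred values mirror each other. Every r within batch 1, here and below, therefore rests on few independent values, and differences in r between batches were not tested.

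**Figure D4:**
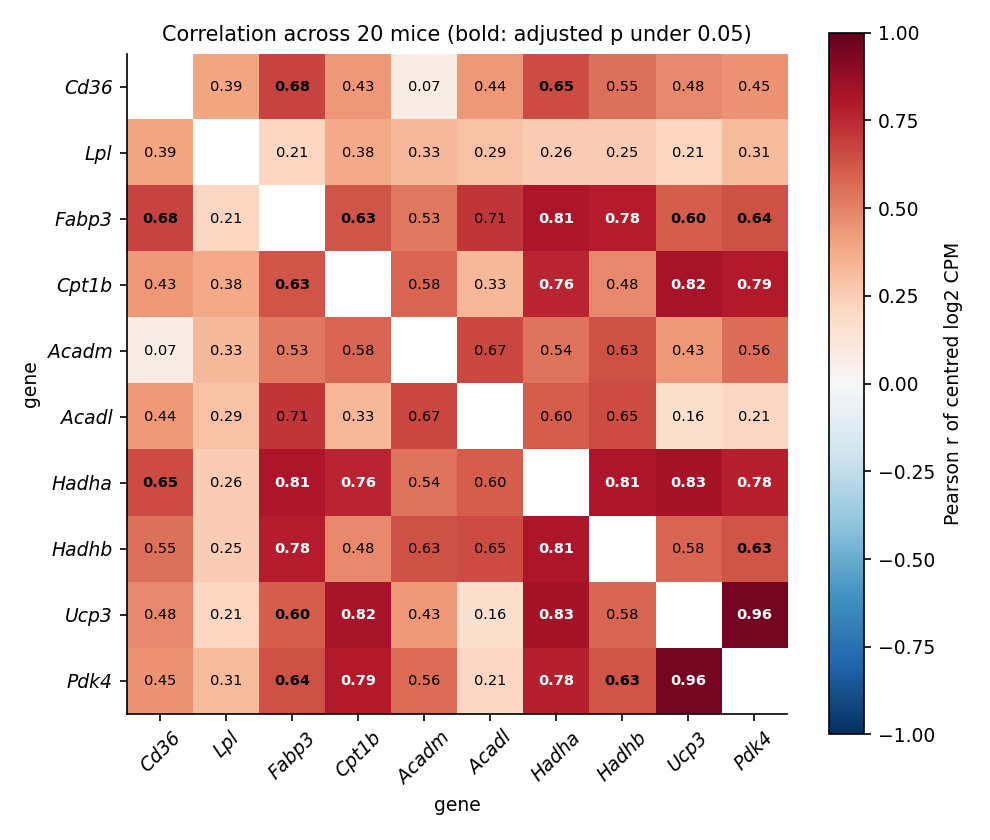
Pearson r of log2 CPM, centred within treatment, sex and batch, for each pair of the 10 genes over 20 mice (colour and number), in bold where adjusted p is under 0.05. Ucp3 with Pdk4 has the highest value, 0.96, Cd36 with Acadm has the lowest, 0.07, and no cell of the Lpl row, from 0.21 to 0.39, is bold.

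The closest pair was Ucp3 and Pdk4, with r = 0.957 and Spearman's rho = 0.898 (exact permutation p = 3.86e-04 and 9.16e-04, adjusted p = 0.00738 and 0.00911). The value was 0.875 within batch 1, 0.970 within batch 2 and 0.874 without the 2 mice farthest from the median. Over all 13625 other genes tested, each of the pair was the gene most like the other, and Cpt2, the inner-membrane carnitine palmitoyltransferase, came next for both (r of 0.945 with Ucp3 and 0.935 with Pdk4). Cpt2 itself ranged only from 46.9 to 75.5 CPM in the 20 mice. The third for Ucp3 was Focad (0.892) and for Pdk4 Gm17251 (0.889).

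**Figure D5:**
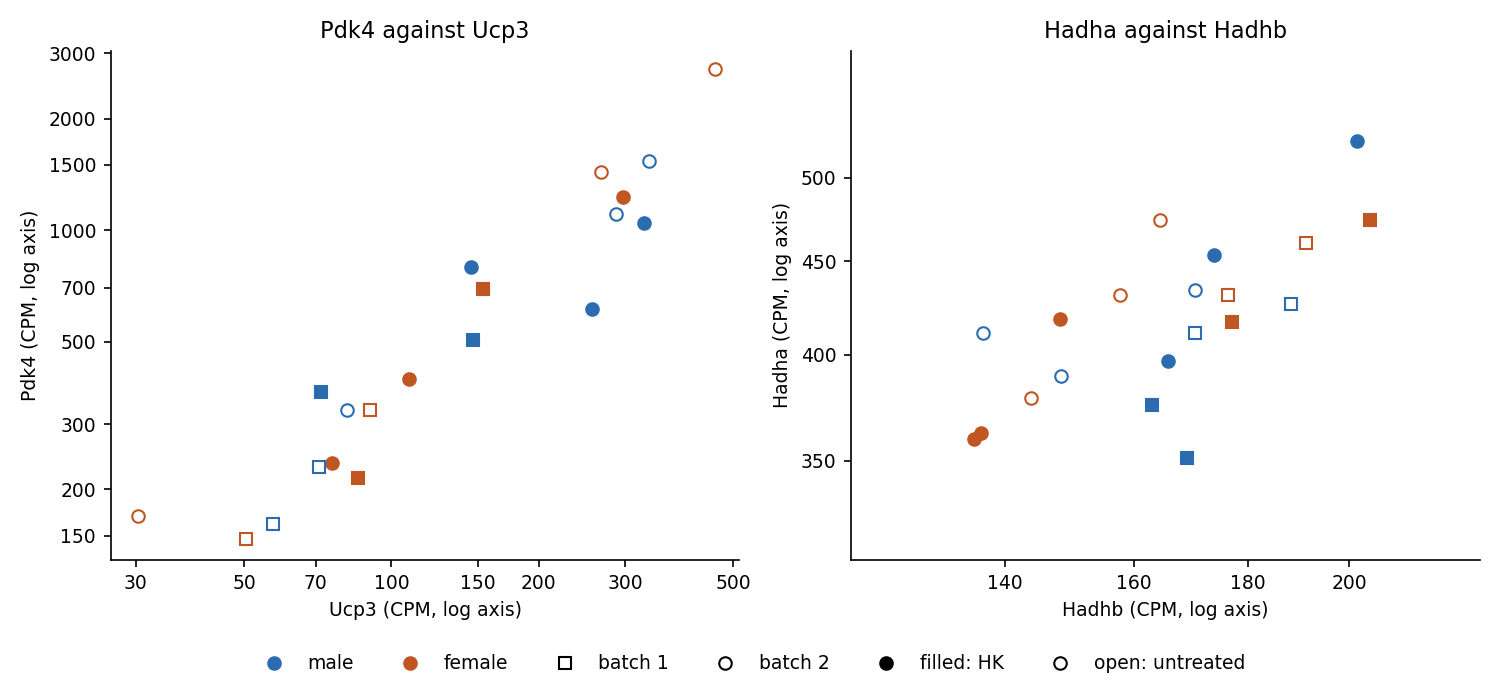
Pdk4 against Ucp3 (left) and Hadha against Hadhb (right) in CPM on log axes; each point is 1 mouse, coloured by sex, squares for batch 1, circles for batch 2, filled for HK-treated and open for untreated mice. Pdk4 and Ucp3 rise together in mice of both groups. They span 18.5-fold and 15.2-fold in untreated mice, and 5.72-fold and 4.57-fold in HK-treated mice. Hadha stands higher at a given Hadhb in most mice of batch 2.

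The bases just before the starts of this pair are shown because Pdk4 and Ucp3 ranked first for each other among all genes. Both runs are from RefSeq, build GRCm38.p6, 5′ to 3′ on the gene's own strand, and end before the first annotated start. Capitals mark AGGTCA, the half-site of PPAR and related receptors. Ucp3 is at chr7:100472741-100472989 and Pdk4 at chr6:5496310-5496528.
Ucp3: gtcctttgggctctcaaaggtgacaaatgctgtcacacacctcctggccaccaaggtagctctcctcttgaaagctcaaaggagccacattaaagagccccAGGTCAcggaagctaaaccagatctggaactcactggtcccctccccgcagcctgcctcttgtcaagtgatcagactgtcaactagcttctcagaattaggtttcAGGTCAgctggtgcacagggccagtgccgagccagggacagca
Pdk4: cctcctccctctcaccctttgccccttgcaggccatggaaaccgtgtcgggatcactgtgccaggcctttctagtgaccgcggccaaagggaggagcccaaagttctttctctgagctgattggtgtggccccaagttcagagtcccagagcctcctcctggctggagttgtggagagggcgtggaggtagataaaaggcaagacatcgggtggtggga

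Motifs were searched on both strands of the 250 bases before each RefSeq start. Of the 10 genes 8 were in the promoter table, which did not include Cpt1b and Lpl. The half-site AGGTCA was in 3 of the 8, once each in Acadm and Cd36 and at 2 places in Ucp3, from 149 and from 44 bases before its start, against 13.8% of all 27025 promoters. A direct repeat of AGGTCA spaced by 1 base was in 0 of 8 (0.0370% of all), and so was the looser repeat of AGGNCA (0.333%), each repeat also containing its half-sites. The estrogen-related receptor site TCAAGGTCA, which contains the half-site, was in 0 of 8 (0.366%), and the FOXO site GTAAACA in 0 of 8 (3.09%).

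The trifunctional protein genes also kept together, with r = 0.811 and rho = 0.798 (exact permutation p = 0.00111 and 0.00217, adjusted p = 0.00832 and 0.0163), 0.784 within batch 1, 0.826 within batch 2 and 0.748 without the 2 mice farthest from the median. They are the pair for which the 85 bases between the annotated genes are printed above. Besides Hadhb, Hadha passed with Ucp3 (0.832), Fabp3 (0.808), Pdk4 (0.777), Cpt1b (0.763) and Cd36 (0.649). The 3 genes most like Hadha of all genes tested were Crat (0.904), Acaa2 (0.900), the thiolase of the last step, and Cpt2 (0.891). Those most like Hadhb were Ppp2r5e (0.912), P2ry1 (0.885) and Tmem65 (0.873).

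Fabp3 passed with Hadha, Hadhb (0.784), Cd36 (0.679), Pdk4 (0.636), Cpt1b (0.630) and Ucp3 (0.604). The genes most like Fabp3 were Chrna2 (0.906), a gene at 0.817 CPM on average, the enoyl-CoA isomerase Ech1 (0.842) and Zkscan6 (0.821). Acadm and Acadl, the 2 dehydrogenases, had r = 0.668 with each other (exact permutation p = 0.0502, adjusted p = 0.105). Acadm was most like the thioesterase Acot13 (0.922), the thiolase Acat1 (0.903) and Ppp5c (0.886), and Acadl like Slc8a1 (0.877), 9430038I01Rik (0.860) and 4931413K12Rik (0.828). The nearest for Cd36 were Cwf19l1 (0.872), the lipid droplet protein Plin5 (0.857) and Cep170b (0.857), for Cpt1b Zkscan17 (0.909), Pnpla7 (0.901) and Pank1 (0.900), and for Lpl Hnrnph3 (0.881), Max (0.876) and Gm42595 (0.874).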

How the data were processed

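Gastrocnemius RNA from 20 mice was sequenced in 2 experimental batches. The authors deposited 1 table of raw counts per gene; per the methods, reads were aligned to GRCm38.p6 with STAR 2.6.1c in two-pass mode and quantified on GENCODE M25, after a quality check with FastQC. Their own downstream normalization used DESeq2 1.28.1, which is not in these counts. The sources used here do not give the counting tool, the strand setting or the treatment of shared reads. Counts were scaled by TMM, filtered with filterByExpr (13626 genes kept, 13800 in interaction fits) and tested with edgeR 4.0.16's quasi-likelihood test (R 4.3.3), treatment, sex and batch being terms of 1 fit, with Benjamini-Hochberg adjustment over all genes tested. The fits were tested on simulated counts. CPM used TMM-scaled library sizes, log2 CPM a prior count of 2. Each sample was 1 mouse. Coordinates and exon lengths came from GENCODE M21 and sequences from RefSeq, both on GRCm38.

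The genes and lists were chosen with earlier results of these data known. Named genes were the 10, 12 pathway genes set by name, pathway genes passing adjusted p 0.05 or with the lowest p of their list for treatment or sex, 6 markers, and the 3 genes most like each of the 10; 2 of the pathway genes so named are not reported here. Decr1, Gm44502, Gm10570 and Zcchc17 were named after their values or annotation were seen. Alternatives were DESeq2 1.42.0, limma 3.58.1 voom, other scaling, filter and covariates, subsets of the mice and each mouse left out. Myh2 was taken out of the slow fibre list (except in the correlations with lists), and this and the correlation alternatives were chosen after seeing the data.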

Additional observations from a re-analysis of the deposited data

How the results depend on the processing

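Precision is limited by the number of mice, 20, and by the spread between them, and for Cpt1b also by its 68 to 187 reads. For HK against untreated, the count of genes past adjusted p 0.05 was 7 (6 higher, 1 lower) with DESeq2's Wald test and 502 (247 higher, 255 lower) without the filter on low counts, 0 to 1 with 1 mouse left out (1 without HK female replicate 1), and 0 in the other 9 alternatives, the replicate block among them. With HK, values changed sign in batch 1 for Acadm (-0.091), Hadhb (-0.028) and Pdk4 (1.05), in batch 2 for Ucp3 (-0.30), in females for Acadm (-0.085), Hadhb (-0.071) and Ucp3 (-0.10), and in males for Acadl (0.0095), Hadha (0.0066) and Pdk4 (0.28). They did so too for Pdk4 with limma voom (0.14) and the replicate block (0.14), and for Ucp3 without covariates (-0.060). With 1 mouse left out, Acadm ran from -0.039 to 0.034, Hadhb from -0.023 to 0.046 and Pdk4 from -0.23 to 0.22.

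Between the sexes, 2197 genes became 651 in HK-treated mice, 489 in untreated mice, 1316 in batch 1 and 878 in batch 2, fits of fewer samples, and 1827 to 2281 with 1 mouse left out. Signs changed in HK-treated mice for Hadha (0.045) and Pdk4 (0.22), in batch 1 for Lpl (-0.14), Fabp3 (-0.37), Acadl (-0.087), Hadhb (-0.12) and Ucp3 (-0.14), in batch 2 for Cpt1b (0.0086) and Hadha (0.10), and in untreated mice for Lpl (-0.049), Hadhb (-0.054) and Ucp3 (-0.14). Pdk4 changed sign with limma voom (0.18) and the replicate block (0.16). With 1 mouse left out, Lpl ran from -0.023 to 0.082, Hadha from -0.076 to 0.015, Hadhb from -0.0073 to 0.081, Ucp3 from -0.064 to 0.30 and Pdk4 from -0.31 to 0.16. Between batches, 5062 genes became 1476 in HK-treated and 2192 in untreated mice, and 4451 to 5235 with 1 mouse left out. Fabp3 (0.0047) and Acadm (0.033) changed sign in HK-treated mice and Hadha (-0.047) in untreated mice, and with 1 mouse left out Fabp3 ran from -0.14 to 0.086 and Hadha from -0.038 to 0.038. The causes were not tested.

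The replicate block gave 1964 genes between the sexes and left Cd36 past the threshold (adjusted p = 0.0404). The numbers did not pair the mice: same-numbered mice had correlations of -0.42 to 0.17 across treatments and -0.24 to 0.28 across sexes. Both interactions kept 0 genes with DESeq2 and limma. The count of 15 correlated pairs was 12 by rank and 12 with DESeq2 size factors, 7 to 18 with 1 mouse left out, and that of correlations with marker lists went from 1 to 0 by rank. These correlation alternatives were chosen after seeing the data. With Myh2 in the slow fibre list, as first set, 8 of 9 markers were lower in males and 0 of 9 with HK, 7 of them at an unadjusted p under 0.05.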

Other observations

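Each of the 10 genes was also compared with 5 marker lists across the 20 mice, within treatment, sex and batch, which gave 50 correlations. Of these 1 passed adjusted p 0.05: Cd36 with the 10 markers of fasting and glucocorticoid response, with r = 0.698 and rho = 0.635 (exact permutation p = 9.65e-04 and 0.00699, adjusted p = 0.0482 and 0.138). The value was 0.365 within batch 1 and 0.889 within batch 2, and 0.649 without HK male replicate 5 and HK female replicate 5, the 2 mice farthest from the median. By rank none of the 50 passed.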
